A study of Mus musculus with 6 samples.

Results

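The 9 genes described here make, move, sense or break down prostaglandins: Pla2g4a, Ptgs1, Ptgs2, Ptges, Abcc4, Slco2a1, Hpgd, Ptger2 and Ptger4. Sites of the DNA-binding transcription factor RUNX1 were taken for each gene from the peaks of chromatin immunoprecipitation and sequencing (ChIP-seq) whose summit lay in the gene body or within 100 kb of either end. This gave 77 of the 51515 peaks in the 4 libraries, around 9 of the 21887 protein-coding genes in the RefSeq table. Pla2g4a and Ptgs2 lie 138740 bp apart on chromosome 1, so their windows overlap, and 0 peaks fell into both.

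The cells were granulosa cells, the somatic cells around the oocyte in the ovarian follicle, from CBA x C57BL/6 F1 mice aged 21 days. The mice were primed with equine chorionic gonadotropin (eCG, 5 IU), a hormone under which follicles grow. The protocol then gives human chorionic gonadotropin (hCG, 5 IU) after 46 h, in place of the luteinising hormone surge that triggers ovulation. RUNX1 was measured in 2 libraries of cells called pre-ovulatory (0 h after hCG) and in 2 libraries of cells called peri-ovulatory (6 h after hCG), with 1 pooled input per time point. Only the 6 h collection appears in the treatment text, and the 0 h samples are placed by their titles and time-point label. How many animals stand behind a library, and whether replicates came from separate animals, is not given in the sources used here, so p-values measure only the spread between libraries. Peak lists hold no expression values, and the cell type was not checked against markers.

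Prostaglandin synthesis begins when PLA2G4A, a cytosolic phospholipase, releases arachidonic acid from membranes. The cyclooxygenases PTGS1 and PTGS2 turn it into an unstable intermediate, and PTGES makes prostaglandin E2 from that. ABCC4 carries prostaglandins out of the cell, SLCO2A1 takes them up, HPGD inactivates them, and PTGER2 and PTGER4 are receptors for prostaglandin E2 that raise cyclic AMP. In the ovary Ptgs2 is known as a gene that granulosa cells switch on after the luteinising hormone surge, and its product is needed for normal ovulation.

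At 0 h few RUNX1 peaks were found at these loci, and none of them lay at a prostaglandin gene itself. The loci held 1 peak in 0 h replicate 1 and 2 peaks in 0 h replicate 2, against 31 and 43 peaks in 6 h replicates 1 and 2. The 0 h libraries averaged 1.5 ± 0.707 peaks and the 6 h libraries 37.0 ± 8.49 (SD, n = 2 per time point), with no overlap between the groups. On the scale of log2(count + 1) the 6 h mean was 3.94 higher (exact permutation test, two-sided, p = 0.333), which is the smallest p that 2 libraries against 2 can give. When only peaks inside one of the genes or nearest to one of its ends were counted, the libraries held 0 and 0 peaks at 0 h and 17 and 26 at 6 h. By that rule 0 of the 9 genes had a peak in either 0 h library, against 12.6% of all protein-coding genes, and 8 of 9 had one in either 6 h library, against 58.2%. For 9 genes, 0 is near the 12.6% share, so the lack of 0 h peaks says little about them in particular.

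The lists themselves were far longer at 6 h, with 948 and 3135 peaks at 0 h and 18761 and 28671 at 6 h. The 9 loci took 1.05 of every 1000 peaks in 0 h replicate 1 (exact Clopper-Pearson 95% interval 0.0267 to 5.86) and 0.638 in 0 h replicate 2 (0.0773 to 2.30). At 6 h they took 1.65 (1.12 to 2.34) and 1.5 (1.09 to 2.02) of every 1000 in replicates 1 and 2. These intervals cover counting error only, and all 4 overlap. The difference of 0.730 per 1000 (exact permutation test, two-sided, p = 0.333, again the smallest possible) fell to 0.0323 with p = 1 in the same exact test when peaks were limited to a −log10 q of at least 20. In lists cut to the same length, the 948 peaks with the lowest p-values in each library, it turned to −1.055 per 1000, and the difference on the log2 scale turned from 3.94 to −1.0. With 2 libraries against 2, a difference in share of any size could not give a p below 0.333 in this test. The equal-length lists rested on 1 and 1 peaks at the 9 loci at 0 h and 0 and 0 at 6 h. Whether the share differed beyond the list lengths could therefore not be decided.

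**Figure D1:**
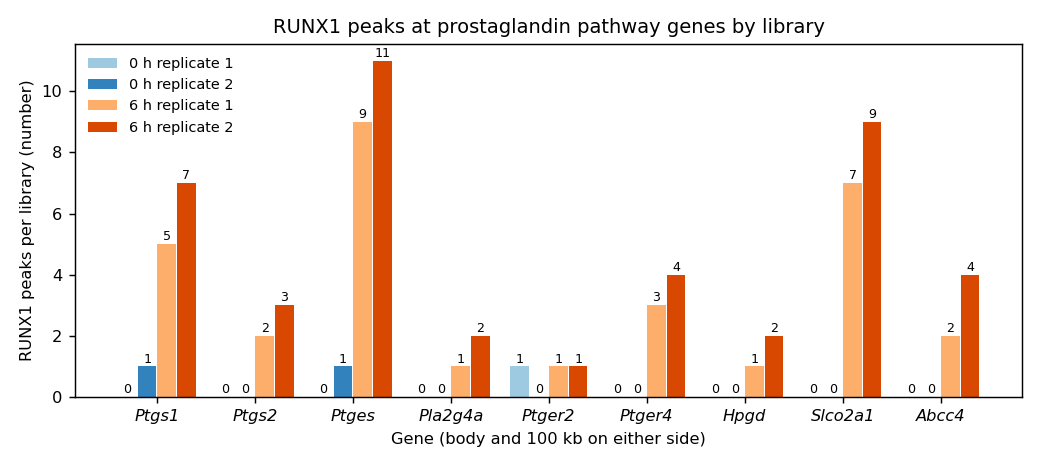
Number of RUNX1 peaks (vertical axis) in the body and 100 kb flanks of each gene (horizontal axis), with 1 bar per library. The 0 h bars are at 0 or 1 for every gene, and the 6 h bars run from 1 at Ptger2 to 9 and 11 at Ptges.

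Gene by gene, 8 of the 9 had more peaks in both 6 h libraries than in both 0 h libraries. Among all protein-coding genes 73.8% did so, and 0.0% had fewer in both 6 h libraries, so the share among the 9 says little about them in particular. The exception was Ptger2, with 1 and 0 peaks at 0 h and 1 and 1 at 6 h. A peak of either 0 h library was found near 3 of the 9 genes, against 40.1% of all protein-coding genes. A replicated region, made by joining overlapping peaks that the pair of libraries at a time point both contribute to, was found near 0 of the 9 genes at 0 h, against 13.7% of all genes. At 6 h all 9 had one, against 76.7%. The loci held 30 replicated regions at 6 h, a median of 2 per gene, beside a median of 3 over all protein-coding genes.

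The number of 6 h regions was uneven between the genes. Ptges had 8, Slco2a1 7, Ptgs1 5, Ptger4 3, Ptgs2 and Abcc4 2 each, and Pla2g4a, Ptger2 and Hpgd 1 each. At least 8 regions were found for 13.3% of all protein-coding genes, at least 7 for 17.5%, at least 5 for 31.3%, and at least 1 for 76.7%. Ptges, Slco2a1 and Ptgs1 had more regions than most genes. Ptgs2, Abcc4, Pla2g4a, Ptger2 and Hpgd had fewer than the median gene. A longer gene has a longer window. The 9 genes had a median length of 41550 bp, against 17169 bp for all protein-coding genes, and Ptges was 41550 bp and Slco2a1 88942 bp long. The part of gene length in these counts, and in the counts inside gene bodies, was not tested.

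**Figure D2:**
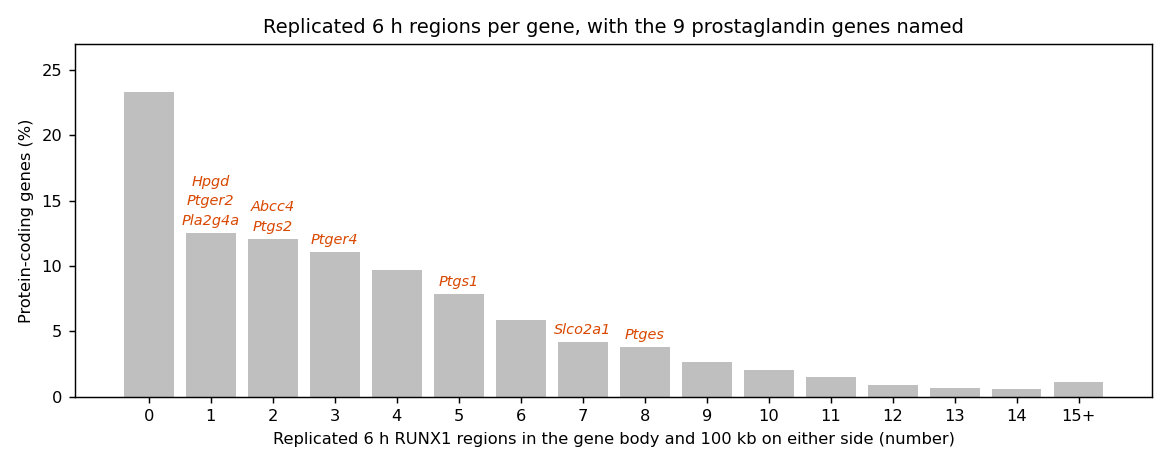
Share of all protein-coding genes (vertical axis, %) by the number of replicated 6 h regions in the body and 100 kb flanks (horizontal axis, with 15 or more in the last bar). The names mark the 9 prostaglandin genes, which run from 1 region for 3 of them to 8 for Ptges.

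Many of the 30 regions lay at other genes in the same windows. For 17 regions the summit was inside the prostaglandin gene or nearest to one of its ends, and for 13 another protein-coding gene was nearest. Of these 13, 7 lay within 1 kb of an end of that other gene. A summit inside the gene body was found for 8 regions, in 3 of the 9 genes (Ptges, Slco2a1 and Abcc4), against 35.4% of all protein-coding genes. In the gene body alone 3 of the 9 had more peaks in both 6 h libraries than in both 0 h libraries, against 29.8% of all genes. With flanks of 10 kb, 5 of the 9 had a replicated 6 h region, against 53.2%, and 5 had more peaks at 6 h, against 46.9%. The window limit cut close to few regions. The farthest region kept lay 89861 bp from Ptger4 and the nearest one outside a window lay 105993 bp from Slco2a1.

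**Figure D3:**
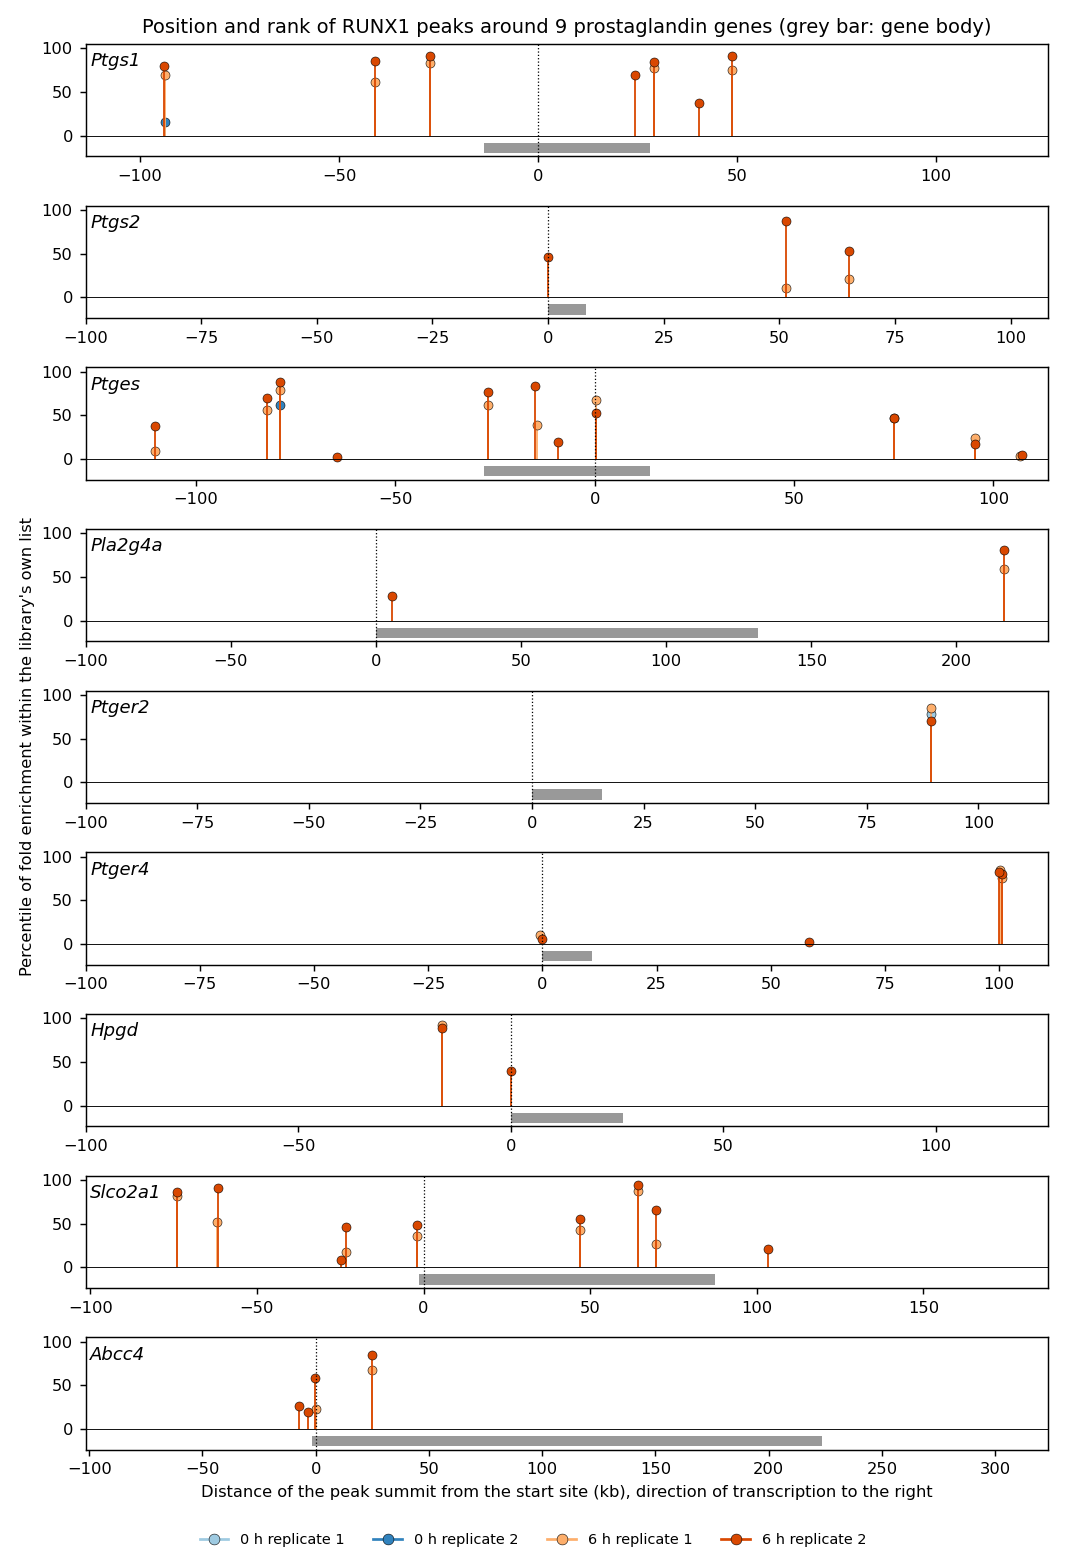
RUNX1 peaks around each of the 9 genes. The horizontal axis is the distance of the summit from the most upstream RefSeq start site in kb, with transcription to the right, and the vertical axis is the percentile of the peak's fold enrichment within its own list. Points are peaks, coloured by library, and grey bars are gene bodies. The 3 peaks of 0 h libraries stand at the far flanks of Ptgs1, Ptges and Ptger2.

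Start sites were examined next, by counts chosen after the peak positions had been seen. Of the 9 genes, 5 had a 6 h summit within 1 kb of a RefSeq start site in at least 1 library, against 48.8% of the 17492 protein-coding genes with a listed start. Both 6 h libraries had one at Ptges, Ptger4 and Abcc4, that is 3 of 9 against 39.9%. At Ptgs2 and Hpgd only replicate 2 did. A peak reached into the promoter window, from 250 bases before the start to 50 after it, at 4 of 9 genes (Ptgs2, Ptger4, Hpgd and Abcc4), against 45.5% of genes in either 6 h library. All 4 such peaks were from replicate 2, where 44.9% of genes had one, and none came from replicate 1, where 37.0% did. A merged replicated region covered part of the window at Ptger4 and Abcc4, 2 of 9 against 37.9%. At 0 h none of the 9 had a peak in the window, against 7.32%.

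The promoters of Ptgs2, Ptger4 and Abcc4 are shown because 6 h peaks lay over most or all of the bases before their start sites. Each line gives the 250 bases before the start, in the direction of transcription, from RefSeq on GRCm38.p6. Capitals mark matches on either strand to the motifs searched. These were the RUNX motif TGTGGT, its longer form TGTGGTTT, the AP-1 motif TGANTCA, the NR5A motif CAAGGTCA, the cyclic AMP response element TGACGTCA and the C/EBP motif TTGCNNAA. The long RUNX form contains the short one.
Ptgs2, chr1:150099781-150100030, plus strand: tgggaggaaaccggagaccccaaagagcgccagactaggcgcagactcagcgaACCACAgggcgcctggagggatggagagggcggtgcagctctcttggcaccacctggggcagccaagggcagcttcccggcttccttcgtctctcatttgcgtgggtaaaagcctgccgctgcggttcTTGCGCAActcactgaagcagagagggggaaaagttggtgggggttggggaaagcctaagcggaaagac
Ptger4, chr15:5244188-5244437, minus strand: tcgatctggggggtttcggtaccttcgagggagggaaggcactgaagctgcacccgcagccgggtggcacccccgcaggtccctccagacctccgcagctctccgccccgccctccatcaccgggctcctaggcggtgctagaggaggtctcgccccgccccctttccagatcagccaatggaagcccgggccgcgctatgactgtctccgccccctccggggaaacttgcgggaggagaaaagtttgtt
Abcc4, chr14:118706220-118706469, minus strand: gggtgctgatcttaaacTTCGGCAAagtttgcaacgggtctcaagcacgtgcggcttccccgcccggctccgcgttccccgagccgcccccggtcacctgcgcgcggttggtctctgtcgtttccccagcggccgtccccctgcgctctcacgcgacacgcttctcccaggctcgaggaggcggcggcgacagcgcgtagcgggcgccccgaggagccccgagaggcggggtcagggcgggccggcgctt

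The Ptgs2 promoter held a RUNX match, ACCACA, which is the motif read on the other strand, from 197 to 192 bases before the start. It also held a C/EBP match, TTGCGCAA, from 69 to 62 bases before the start. The Abcc4 promoter held a C/EBP match, TTCGGCAA, from 233 to 226 bases before the start. No other match was found in the 11 promoter windows RefSeq lists for the 9 genes. Over all 32851 windows of this length the RUNX motif was present in 14.0%, the long form in 1.49%, AP-1 in 6.75%, NR5A in 1.33%, the cyclic AMP element in 1.55% and C/EBP in 9.56%. The RUNX motif was present in 10% of the 8753 windows under a replicated 6 h region and in 15.9% of the 22293 without a 6 h peak. A match is a description of these letters and is not a measured binding site.

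The 3 printed promoters were rich in G and C. Their content was 61.6% at Ptgs2, 66.8% at Ptger4 and 72.0% at Abcc4, with 13, 19 and 35 CpG dinucleotides. The median was 63.2% with 19 CpG over windows with a replicated 6 h region and 48.4% with 3 CpG over windows without a 6 h peak. Hpgd, the other gene with a 6 h peak reaching into its window, had 56.8% and 9 CpG. Of the windows without a 6 h peak, Slco2a1 had 63.2% with 12 CpG and Ptges 59.6% with 8 CpG. Ptgs1 had 48.0% with 5 CpG, the other window of Abcc4 47.6% with 4, the windows of Pla2g4a 43.2% with 3 and 39.6% with 1, and Ptger2 38.0% with 3. Windows with and without a peak thus overlapped in composition among these genes.

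Ptgs2 (chr1:150100031-150108234) encodes the inducible cyclooxygenase. No 0 h peak lay in its window, and it had 2 peaks in 6 h replicate 1 and 3 in replicate 2. The peak at its promoter, chr1:150099691-150100102, was called only in 6 h replicate 2, covered all 250 bases printed above and had its summit 84 bp before the start. Its fold enrichment was 10.2, at percentile 45.6 of that list, from 47 reads over a background of 3.73. Reads here and below are the whole-number pileup at the summit, recovered from the deposited fold and p-value, and the background is the number expected there. Positions are on mm10, and pairs of values are for 6 h replicate 1 and then replicate 2. A fold and its percentile describe a peak within its own list and are not on a common scale between lists.

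The 2 regions found in both 6 h libraries at Ptgs2 lay beyond its far end. The region at chr1:150151375-150151718 had its summit 43301 bp past the gene, with a fold of 5.38 in replicate 1 and 21.8 in replicate 2, at percentiles 10.2 and 87.3. The replicates thus ranked this region very differently. It stood on 39 reads over a background of 6.43 in replicate 1 and on 75 reads over 2.48 in replicate 2. The region at chr1:150164904-150165230, 56828 bp past the gene, had folds of 6.34 and 11.0 and percentiles of 20.7 and 52.4. Ptgs2 was the nearest protein-coding gene to both.

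Ptgs1 (chr2:36216742-36258593), the constitutive cyclooxygenase, had 0 and 1 peaks at 0 h and 5 and 7 at 6 h. No library had a peak within 1 kb of its listed start site. Of its 5 regions 2 were nearest to Ptgs1 itself, both beyond its far end. The region at chr2:36259279-36260060, 861 bp past the gene, had folds of 12.8 and 19.8 and percentiles of 77.7 and 84.4. The region at chr2:36278747-36279289, 20483 bp past it, had folds of 12.3 and 25.3 and percentiles of 75.7 and 90.8. Replicate 2 alone had a peak inside the gene, at chr2:36254429-36254897 with a fold of 14.4.

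The other 3 Ptgs1 regions were nearer to neighbouring genes. The highest-ranked of the 5 lay at chr2:36202997-36203690, 27215 bp upstream of the Ptgs1 start, with folds of 14.6 and 25.8 and percentiles of 83.8 and 91.2. It lay 12927 bp from an end of Mrrf and 13531 bp from an end of Ptgs1, so it was nearly as close to Ptgs1. A region inside Mrrf at chr2:36189249-36189775 had folds of 9.83 and 20.8. The region at chr2:36136207-36136878, 180 bp from an end of Rbm18, had folds of 11.1 and 17.8 and was the one with a 0 h peak.

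Ptges (chr2:30889471-30931020), the inducible prostaglandin E synthase, had 0 and 1 peaks at 0 h and 9 and 11 at 6 h, the most of the 9 genes. It had 8 regions, of which 3 had their summits inside the annotated gene body and 5 lay nearer to other genes. The region closest to its start, chr2:30902583-30903052, had its summit 433 bp downstream of the start and just 1 bp apart in the 2 libraries. Its fold was 10.7 and 11.1, at percentiles 67.2 and 52.5. The region at chr2:30929533-30930143 had folds of 9.96 and 16.5 and percentiles of 62.1 and 76.8. It lay 26647 bp upstream of the 1 start site listed for Ptges, inside the annotated body and 1076 bp from the 5′ limit of that body.

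The third region inside the body of Ptges, chr2:30917571-30918347, lay 14863 bp upstream of the listed start, so 2 of these 3 regions came before it. It had folds of 7.64 and 19.5 and percentiles of 38.7 and 83.7, and its summits lay 356 bp apart. The 3 highest-ranked of the 8 regions were at chr2:30981662-30982859, 130 bp from an end of the deubiquitinase gene Usp20, the one at chr2:30929533-30930143 and one inside Usp20 at chr2:30985260-30985675. The first had folds of 13.0 and 22.1, with 148 and 186 reads, the most of the 30 regions in each library. The third had folds of 9.25 and 14.2. The remaining 3 regions had mean percentiles between 20.2 and 46.9 and were nearest to Ntmt1, Asb6 and Usp20.

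Ptges had 20 peaks over both 6 h libraries, and 12.1% of all protein-coding genes had at least as many. Among 21877 protein-coding genes with other windows, 34 had exactly its numbers of 0, 1, 9 and 11 peaks in 0 h replicates 1 and 2 and 6 h replicates 1 and 2. In alphabetical order the first 3 of these were Armc7, Arrdc3 and BC024978, compared by Euclidean distance over the 4 libraries.

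Pla2g4a (chr1:149829618-149961290), the phospholipase at the head of the pathway, had 0 and 0 peaks at 0 h and 1 and 2 at 6 h. Its 1 region lay at chr1:149744817-149745401, 84537 bp past the far end of the gene, with folds of 9.57 and 17.9 and percentiles of 59.1 and 80.5. Replicate 2 alone had a peak inside the gene, at chr1:149955570-149955769 and 5613 bp downstream of the more upstream of its 2 listed start sites, with a fold of 8.30 from 25 reads. Neither start site had a peak within 1 kb.

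Abcc4 (chr14:118482692-118707856), the exporter, had 0 and 0 peaks at 0 h and 2 and 4 at 6 h. All of its peaks lay inside the gene or within 5683 bp of it. The region at its start, chr14:118705779-118706612, joined a replicate 1 peak with its summit 251 bp after the start and a replicate 2 peak with its summit 110 bp before it. Their folds were 6.53 and 12.1, at percentiles 23.3 and 58.7. The replicate 2 peak covered all 250 bases printed above, and the replicate 1 peak covered 0 of them. The other region, inside the gene at chr14:118681060-118681451, was the higher-ranked, with folds of 10.7 and 19.7 and percentiles of 67.1 and 84.2, and its summits lay 9 bp apart.

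Slco2a1 (chr9:103007061-103096002), the importer, had 0 and 0 peaks at 0 h and 7 and 9 at 6 h, and 7 regions. Of these 5 were inside the gene or nearest to it, the largest such number among the 9 genes. The region with the highest rank, chr9:103072549-103073569, lay inside the gene, 64476 bp downstream of the start. Its fold was 15.9 and 31.7, at percentiles 86.8 and 94.8, from 79 and 129 reads, and the replicates placed its summit 20 bp apart. Next came a pair of upstream regions to which Ryk was nearer. The region at chr9:102934193-102934793 had folds of 13.8 and 21.0 and the one at chr9:102946453-102946918 had 8.78 and 24.9, at percentiles 52.3 and 90.5. The other 4 regions, all at Slco2a1 itself, had mean percentiles from 31.5 to 49.3. One of them, chr9:103006351-103006654, lay 2019 bp upstream of the start with folds of 7.43 and 10.4.

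Hpgd (chr8:56294552-56321046), which encodes the enzyme that inactivates prostaglandins, had 0 and 0 peaks at 0 h and 1 and 2 at 6 h. Its single region had the highest mean rank of all 30. It lay at chr8:56278028-56278809, 16229 bp upstream of the start, with Hpgd the nearest protein-coding gene. The fold was 19.7 and 23.6, at percentiles 92.6 and 89.3, from 82 and 125 reads over backgrounds of 3.21 and 4.35. Replicate 2 alone had a peak at the start, chr8:56294538-56294912, with its summit 165 bp downstream and a fold of 9.35. It reached 14 bases before the start.

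The receptors Ptger2 and Ptger4 had few regions of their own. Ptger2 (chr14:44988111-45003820) had 1 region, chr14:45077253-45077597, with its summit 73587 bp past the far end of the gene and 57041 bp from the nearest protein-coding gene end, that of Txndc16. The fold was 15.4 in 6 h replicate 1 and 14.4 in replicate 2, at percentiles 85.6 and 69.7, from 57 and 44 reads. Of the 9 genes, Ptger2 was the only one with no 6 h peak inside it or nearest to it, where 58.2% of all protein-coding genes had such a peak.

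Ptger4 (chr15:5233399-5244187) had 0 and 0 peaks at 0 h and 3 and 4 at 6 h. Its own region lay at the promoter, chr15:5244236-5244745, and ranked lowest of the 30. The folds were 5.38 and 5.62, at percentiles 10.01 and 5.20, from 26 and 36 reads over backgrounds of 4.02 and 5.59. The summits lay 413 and 174 bp upstream of the start, and the replicate 2 peak covered 202 of the 250 bases printed above. The other 2 regions, with folds of 12.2 and 17.6 and of 15.2 and 18.8, lay within 387 bp of an end of Prkaa1, which encodes a catalytic subunit of the AMP-activated kinase, near the edge of the window.

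The 3 peaks at 0 h all overlapped a replicated 6 h region, as did 92.2% of all peaks in 0 h replicate 1 and 94.7% in 0 h replicate 2. Each was called in a single 0 h library. The Usp20 peak near Ptges, chr2:30981924-30982277, had a fold of 7.93 in 0 h replicate 2, at percentile 61.3, from 42 reads. The Rbm18 peak near Ptgs1, chr2:36136527-36136735, had a fold of 5.65 in the same library, at percentile 15.9, from 32 reads. The peak beyond Ptger2, chr14:45077294-45077566, had a fold of 9.82 in 0 h replicate 1, at percentile 78.1, from 40 reads. Its summit lay 29 and 24 bp from those of the 6 h replicates. The summits of the other peaks lay 7 and 28 bp from the 6 h summits at Usp20 and 12 and 90 bp from them at Rbm18.

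Read totals were not compared, so the part of sequencing depth in the length of the lists was not tested. The lists do give a background and the lowest pileup at which a peak was called. The commonest background, recovered from the deposited values, was 2.77 and 2.65 reads in the 0 h libraries and 2.76 and 2.13 in the 6 h libraries. The lowest pileup of any called peak was 20 and 19 reads at 0 h and 19 and 17 at 6 h. All 74 peaks of the 6 h libraries at the 9 loci stood on at least 21 reads. A site with less than about this pileup would not be listed at 0 h, so a site missing from the 0 h lists is below detection and is not shown to be unbound.

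Within the 6 h lists the 30 regions spread over nearly the whole range of ranks, from a mean percentile of 7.60 to 91.0, and 2 were above 90. Their median percentile was 60.2 in replicate 1 and 80.0 in replicate 2, beside 53.0 and 67.9 for all 17190 replicated 6 h regions. Their median width was 535 bp, against 611 bp for all. The replicates placed the summits a median of 21.5 bp apart and at most 361 bp. None of these sites was among the 948 peaks with the lowest p-values in either 6 h library. In the lists of that one length the 9 loci held 1 and 1 peaks at 0 h, at Ptger2 and Ptges, and 0 and 0 at 6 h. At that length 0 of the 9 genes had a replicated 6 h region, against 11.1% of all protein-coding genes, and 0 had more peaks in both 6 h libraries, against 3.74%.

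**Figure D4:**
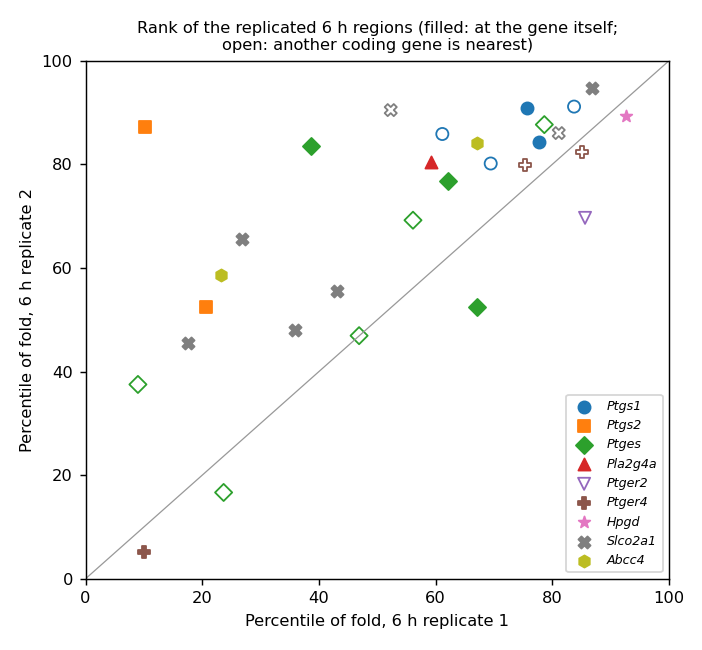
Percentile of the fold enrichment of each of the 30 replicated 6 h regions in 6 h replicate 1 (horizontal axis) and replicate 2 (vertical axis). Symbols give the gene, filled where the region is inside or nearest to it and open where another gene is nearest. Hpgd and the Slco2a1 region at percentiles 86.8 and 94.8 stand at the top right, and the Ptger4 promoter region stands at the bottom left.

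Other genes of prostaglandin and related lipid mediator synthesis were read from a list of 41 names, of which 40 are protein-coding in RefSeq. A replicated 6 h region was found near 38 of the 40, against 76.7% of all protein-coding genes, and a replicated 0 h region near 8, against 13.7%. The listed genes are not independent, since 5 of them (Pla2g2d, Pla2g2f, Pla2g5, Alox12b and Aloxe3) shared a 6 h region with another of the list. The median was 3.5 regions at 6 h, beside 3 over all protein-coding genes. The 2 without a 6 h region, picked out after their values were seen, were the prostaglandin D2 receptor gene Ptgdr, with no peak in any library, and the phospholipase gene Pla2g4f, with peaks in 6 h replicate 2 only. The 8 genes rested on 7 regions at 0 h, most of them nearest to another gene. They were Ptgds, Ptgfr, Ltc4s, Alox5, Alox5ap, Alox12, Alox12b and Aloxe3. By role, a 0 h region was found near 0 of 13 phospholipases, 1 of 9 synthases, 1 of 7 receptors, 0 of 3 breakdown enzymes and 6 of 8 genes of the lipoxygenase arm, beside the same 13.7% of all genes. These groups are small, and no difference between them was tested. The Alox12b and Aloxe3 windows shared a region inside the clock gene Per1.

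Of this list Ptgfr, the receptor for prostaglandin F2alpha and known for its part in the regression of the corpus luteum, was the one whose 0 h region had the listed gene as its nearest. The region at chr3:151910918-151911172 lay 73516 bp from it, with folds of 7.72 and 7.17 at 0 h, at percentiles 51.0 and 47.0. The same site had folds of 39.5 and 67.9 at 6 h, at percentiles 99.5 and 99.8, which is above every region of the 9 genes. The Alox12 window held a 6 h site of like rank, at percentiles 99.6 and 99.7 and nearest to Slc16a11, and the Per1 site had percentiles 99.3 and 98.9.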

How the data were processed

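Per the submitters' processing notes, reads (single-end, 75 nt) were aligned with Bowtie2 2.2.5 to mm10 and peaks were called with MACS2, whose version and settings are not given in the sources used here. The authors deposited 1 peak list per ChIP library, called against an input that the series design describes as pooled per time point. The inputs have no list of their own here. The deposited lists give each peak's fold enrichment as a ratio, its p-value and q-value on the −log10 scale, and a score equal to 10 times the −log10 p, rounded down, which was not used. Folds and ranks are used within a list only.

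Gene bodies, start sites and promoters came from RefSeq tables on GRCm38.p6, the assembly of mm10. All 9 genes matched by symbol, and 40 of 41 other names matched protein-coding genes by symbol or synonym. Exons and introns were not separated. Positions count from 1. Peaks of replicates sharing at least 1 bp were merged, and the summit of a region is that of its peak with the highest fold. The pileup was solved from fold and −log10 p (misfit at most 0.005 on that scale) for 100% of peaks, and the solver and counts were tested on simulated data.

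Libraries were compared with exact two-sided permutation tests on log2(count + 1) and on shares. Analyses used Python 3.11.15, numpy 2.4.6, pandas 2.3.3 and scipy 1.17.1. Genes, lists and tests were chosen with earlier results of these data known. All 9 genes are described. Regions are given for each, or the 3 highest-ranked and a summary where a gene has over 6. Counts at start sites, peaks of a single library and the other regions given were added after their values were seen. From the other list, genes with a 0 h region and the 3 highest-ranked 6 h regions are named. Alternatives were other windows, stricter or equal lists, other overlap rules, single libraries left out and replicate numbers as a block.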

Additional observations from a re-analysis of the deposited data

How the results depend on the processing

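With equal list lengths the direction turned. The difference in peaks at the 9 loci, 6 h minus 0 h, was then −1.0 (log2) and −1.055 per 1000, and 0 of the 9 genes had a replicated 6 h region (11.1% of all protein-coding genes) or more peaks in both 6 h libraries (3.74%). These lists hold fewer peaks by construction. The other settings kept the direction of both differences, with 3.44 to 4.54 (log2) and 0.0323 to 1.15 per 1000, and 3.65 to 4.23 and 0.521 to 0.938 with a library left out. Genes with a 6 h region numbered 5 within 10 kb (53.2% of all genes) and 3 in the gene body alone (35.4%), and so did those with more peaks in both 6 h libraries (46.9% and 29.8%). Genes with a 0 h region stayed at 0, except 2 without 0 h replicate 1 (39.5% of all genes) and 1 without 0 h replicate 2 (14.8%), where 1 library suffices (0 to 2 over all such fits). Replicate numbers as a block left 3.94 and 0.730 as they were (exact sign-flip test p = 0.5, the smallest for 2 pairs). The labels of the libraries share only a replicate number. The deviations of replicate 1 at the time points correlated at −0.037 over 21887 genes. Only 14.8% of genes had a peak of 0 h replicate 1 in their window, so this value cannot exclude a pairing. At 0 h, 2 short lists limit what could be found.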
